A study of Oreochromis niloticus with 12 samples.

Results

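The brain of male Nile tilapia (Oreochromis niloticus) was compared between dominant and subordinate males, over 6 of the 12 samples of the series. The 6 brain libraries are all those labelled as brain, 3 from dominant and 3 from subordinate males. The brain table lists 27115 genes, and the 21743 whose mean over the 6 libraries reached 10 normalised reads were tested. The fish were mature males of the Lake Manzala strain. Each tank held a pair of dye-marked males with several females, and brains of males with a stable rank were taken on day 14. Dominant males were labelled as reproducing and subordinate males as not reproducing, and there was no other treatment. The labels do not say whether samples of the same number shared a tank or whether a sample is 1 fish. The p-values therefore measure the spread between these samples. How much spinal cord or pituitary tissue came with each brain is not given in the sources used here.

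In cichlid fishes a male that holds a territory courts, spawns and displays bright colours, while a male without a territory suppresses reproduction and can switch rank when an opportunity arises. Rank is read in the forebrain and hypothalamus. There, neurons that release gonadotropin-releasing hormone, nonapeptides and feeding peptides link social input to the pituitary and the gonads. Brain aromatase, which makes oestrogen in the radial glia of teleosts, and the steroid receptors are part of the same circuit.

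Values are the authors' deposited normalised read counts. A difference is the dominant mean minus the subordinate mean of log2(normalised reads + 1), given with its standard error (SE), and an adjusted p is from limma with Benjamini-Hochberg adjustment over all 21743 tested genes. Added to every value, the 1 shrinks differences of genes with few reads. Depth was even, at 23733115 to 26383153 recovered reads in dominant brains and 24207486 to 26867631 in subordinate brains. Over all tested genes the median difference was -0.0043 and 48.8% of genes were higher in dominant brains. Transcripts of synapses summed to 511216 to 534399 normalised reads in dominant brains and to 517768 to 551254 in subordinate brains. On the first principal component of the 1000 most variable genes (29.3% of the variance) libraries of the same status did not gather closely. Subordinate brain 1 lay at 55.79 and the other 5 brains lay between -19.87 and -3.37. The second component held 22.4% of the variance and separated the statuses. Dominant brains 1 to 3 lay at -19.46, -10.81 and -25.85 on it, against 8.01, 6.96 and 41.16 in subordinate brains 1 to 3. Subordinate brain 3 stood apart in pituitary hormone transcripts, which summed to 10362, 11979.9 and 15002 in dominant brains, against 13856, 14469 and 29532 in subordinate brains.

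Of the 21743 genes 6 passed the limma test at an adjusted p under 0.05 (0.0276%), and all 6 were higher in dominant brains. They are 4 protein-coding loci and 1 long non-coding RNA that carry only an identifier, and a locus named lnpk in the deposited values. The product of lnpk, lunapark, sits at junctions of the endoplasmic reticulum. LOC100703972 stood at 566, 548 and 535 normalised reads in dominant brains 1 to 3, against 45.5, 53.0 and 41.2 in subordinate brains 1 to 3. It rose by 3.54 ± 0.13 log2 units (SE, adjusted p = 0.000565), and it was the only gene that passed in each of the 6 tests that left out 1 brain (adjusted p = 0.00235 to 0.0181). The locus just before LOC100703972 in order along the chromosome, LOC100703705, stood at 299, 295 and 276 in dominant brains, against 40.1, 22.9 and 29.2 in subordinate brains. LOC100703705 rose by 3.23 ± 0.21 (adjusted p = 0.0118). The lowest dominant value of each of these 2 loci was several times its highest subordinate value, and the spread within a status was small beside that gap.

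A pair of loci was close to silent in subordinate brains. LOC100712056 stood at 346, 296 and 285 in dominant brains 1 to 3, against 0, 2.08 and 2.01 in subordinate brains 1 to 3 (adjusted p = 0.0118). Its recovered reads numbered 921 over the 3 dominant libraries and 4 over the 3 subordinate ones, a ratio of 236 with a 95% interval of 91.8 to 867 that covers counting error only. The long non-coding RNA LOC112843959 stood at 143, 66.8 and 81.6 in dominant brains, against 0.911, 0 and 0 in subordinate brains (adjusted p = 0.0259), with 287 against 1 recovered reads and a ratio of 294 (95% interval 52.3 to 11600). The fitted differences of this pair depend on the pseudocount and are not given. LOC109201566 stood at 98.5, 83.7 and 111 in dominant brains, against 17.3, 14.5 and 12.1 in subordinate brains and rose by 2.66 ± 0.23 (adjusted p = 0.038). The transcript named lnpk stood at 444, 383 and 379.9 in dominant brains, against 172, 188 and 179 in subordinate brains and rose by 1.15 ± 0.10 (adjusted p = 0.038). In the authors' deposited table the log2 fold changes of these 6 genes were 3.56, 3.23, 7.88, 8.11, 2.73 and 1.16, in the order in which they are named here.

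With 1 brain left out the limma count was 1 to 3, except without subordinate brain 1, where it was 15. It was 2, 3 and 1 without dominant brains 1, 2 and 3, and 3 and 3 without subordinate brains 2 and 3. lnpk passed in none of these 6 tests (adjusted p = 0.0887 to 0.359). On the whole reads recovered from the deposited values, edgeR called the same 6 genes and DESeq2 called 84 (0.386%), 71 higher and 13 lower.

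**Figure D1:**
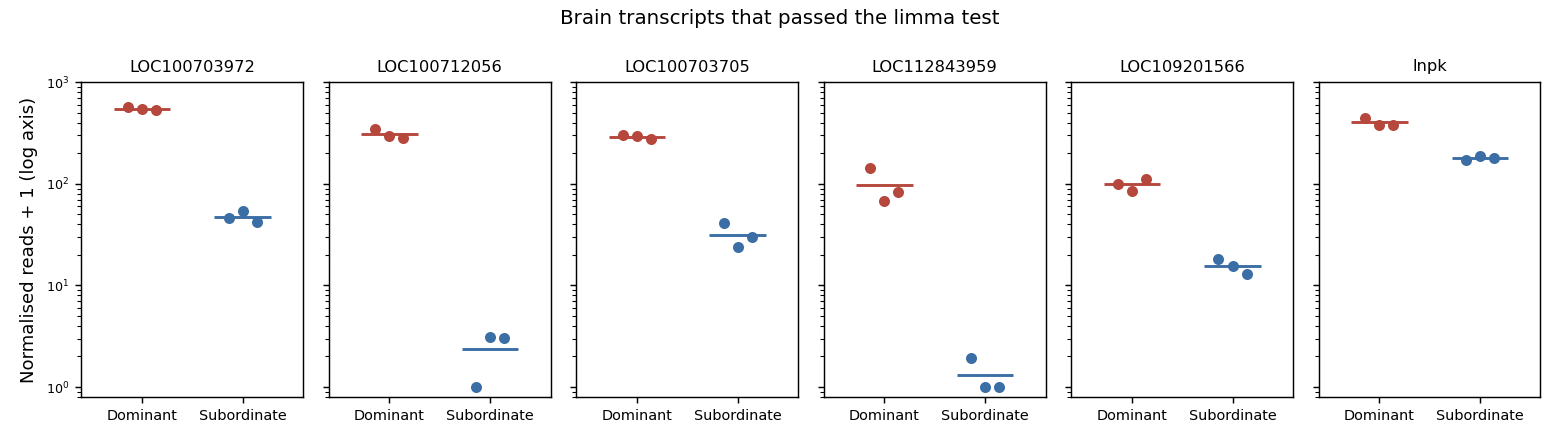
Normalised reads + 1 (log axis) of the 6 transcripts that passed the limma test, in 3 dominant brains (red) and 3 subordinate brains (blue), with a line at the mean of each status. The dominant and subordinate points do not overlap in any panel, and for LOC100712056 and LOC112843959 the subordinate points lie at or near 1, which is a count of 0.

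Of the 6 genes 5 could be placed in the gene order of the RefSeq gene table, and all 5 lay on the same chromosome, in 2 runs. LOC109201566, LOC100712056 and LOC112843959 were 3 neighbours in a row. LOC100703705 and LOC100703972 were 2 neighbours in a row, and 22 other tested genes lay between the runs. This stretch was noticed after the values were seen. Of the 27 genes from first to last of the 5, 7 had groups that did not overlap and an unadjusted limma p under 0.01. Besides the 5, these were LOC100710187, higher in dominant brains, and senp7b, lower in dominant brains, both between the runs. Over all 18913 genes that could be placed, 211 met this rule (1.12%). Since the 5 called genes set the ends of the stretch, its share of such genes was fixed in part beforehand and nothing is read from it. LOC100712056 and LOC112843959 reached the filter on low values only through dominant brains. Their means were 309 and 97.2 in dominant brains, against 1.36 and 0.304 in subordinate brains. The locus named lnpk could not be placed, as no RefSeq entry of its own was matched to it. Its name rests on the deposited values alone, and values of any other lunapark locus are not given here.

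Several genes beside these runs also separated the groups. Past the second run, LOC102082670 stood at 219.8, 187 and 194 in dominant brains, against 75.6, 57.1 and 50.3 in subordinate brains (difference 1.72, adjusted p = 0.112). Further along, rfc4, a subunit of the clamp loader of DNA replication, stood at 195, 215 and 204 in dominant brains, against 122, 111 and 99.6 in subordinate brains (adjusted p = 0.299). mcf2l2, a guanine nucleotide exchange factor, stood at 1055, 1021 and 979.6 in dominant brains, against 608, 717 and 813 in subordinate brains (adjusted p = 0.757). The sixth gene past the run, b3gnt5a, which starts the lacto-series of glycosphingolipids, stood at 52.9, 56.4 and 48.1 in dominant brains, against 4.55, 0 and 2.01 in subordinate brains (adjusted p = 0.355). In all 6 genes that follow LOC100703972 every dominant brain was above every subordinate brain (5.46% of all genes), and none of the 6 passed the limma test. Among them b3gnt5a, LOC109196791 (mean 19.5 in dominant and 5.12 in subordinate brains) and LOC106098153 (13.1 and 7.07) reached a mean of 10 only through dominant brains. A gene low in both statuses drops out of this order, so nothing is read from the unbroken run. The next gene, ect2, overlapped, and the end of this run was set after the values were seen.

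Before the first run and between the runs the direction was mixed. senp7b, a protease that removes SUMO chains and the gene next to LOC112843959, stood at 758, 965 and 754 in dominant brains, against 1165, 1228 and 1152 in subordinate brains (difference -0.53, adjusted p = 0.702). LOC106096913, which lies 2 genes before the first run, stood at 391, 378 and 393 in dominant brains, against 546, 573 and 541 in subordinate brains (difference -0.51, adjusted p = 0.281). Both were lower in every dominant brain than in any subordinate one (5.33% of all genes). Most of the genes between the runs showed no such split, as for cdk15 at 11.4, 23.5 and 22.0 in dominant brains, against 13.7, 29.1 and 23.1 in subordinate brains. LOC100710187 (mean 149.7 in dominant and 87.7 in subordinate brains), lrrfip1b (1503 and 1197) and LOC102081490 (16.6 and 8.86), also between the runs, were higher in every dominant brain (5.46% of all genes). None of them passed limma (adjusted p = 0.855 to 0.934). LOC102081490 reached a mean of 10 only through dominant brains. The counting of reads that match several loci or overlapping genes is not given in the sources used here, so neighbours of similar sequence may share reads.

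**Figure D2:**
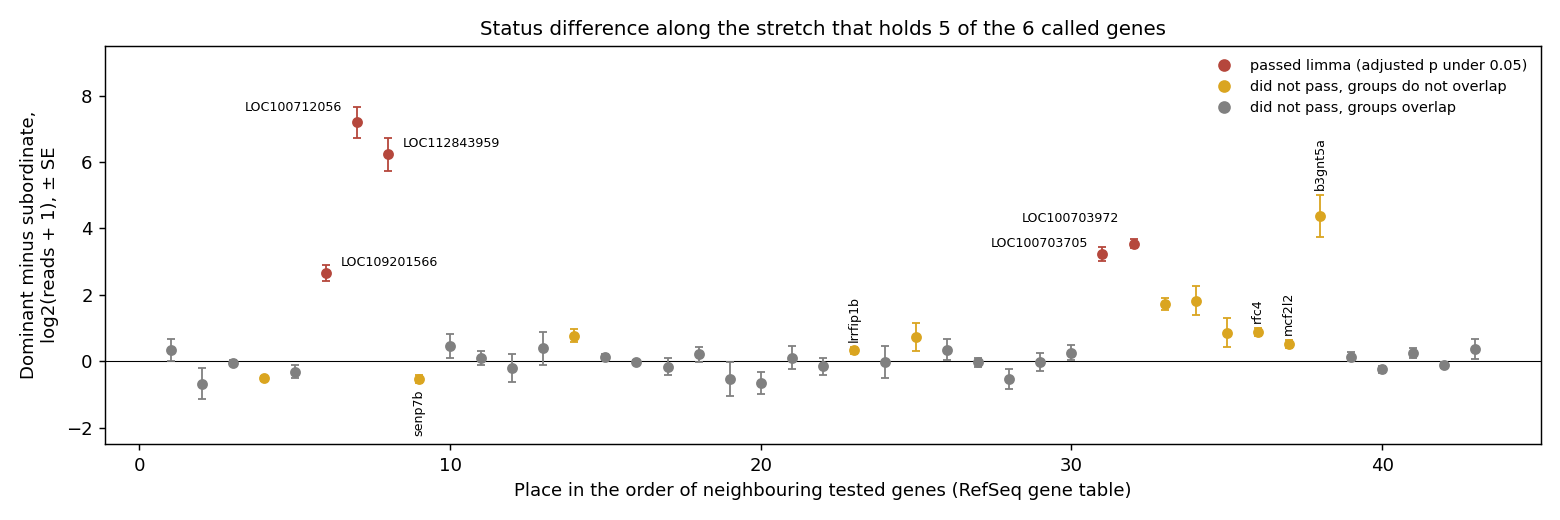
Difference between dominant and subordinate brains (log2, ± SE) of 43 neighbouring tested genes in the order of the RefSeq gene table, with genes that passed limma in red, genes whose groups do not overlap in gold and the others in grey. The red points form a run of 3 and a run of 2, and 6 gold points above 0 follow the second run. Some of these gold points, and the red points of LOC100712056 and LOC112843959, passed the filter on low values only through dominant brains. Over all tested genes, the groups did not overlap with dominant brains higher in 5.46%.

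The 10 named genes that DESeq2 called at the smallest p include lnpk, b3gnt5a and 3 enzymes of sterol synthesis described below. pkd1b, a member of the polycystin family of large membrane receptors, stood at 119, 119 and 94.2 in dominant brains, against 30.1, 29.1 and 37.2 in subordinate brains (limma adjusted p = 0.119, DESeq2 adjusted p = 7.40e-07). pmp22, a membrane protein best known from the myelin of peripheral nerves, stood at 635, 498 and 827 in dominant brains, against 282, 291 and 233 in subordinate brains (limma adjusted p = 0.389, DESeq2 adjusted p = 6.14e-06). Each of these had all dominant values above all subordinate values. bmp16, a bone morphogenetic protein of fishes, stood at 443, 452 and 657 in dominant brains, against 163, 97.7 and 51.3 in subordinate brains (DESeq2 adjusted p = 1.77e-06). cldn29, a claudin of tight junctions, stood at 332, 566 and 250.1 in dominant brains, against 133, 93.5 and 79.5 in subordinate brains (DESeq2 adjusted p = 4.96e-05). sft2d2b, of vesicle transport, stood at 266, 217 and 195 in dominant brains, against 106, 105 and 109 in subordinate brains (DESeq2 adjusted p = 7.86e-05). The subordinate values of bmp16 and cldn29 fell in 1 order, with brain 1 highest and brain 3 lowest.

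Over all tested genes 673 were higher (3.10%) and 451 lower (2.07%) in dominant brains at an unadjusted limma p under 0.05. The groups did not overlap, with dominant brains higher, in 1187 genes (5.46%) and, with dominant brains lower, in 1159 (5.33%). A difference over 1 log2 unit in size was found in 516 genes, 355 higher and 161 lower, while the median size was 0.107. Among named genes with a mean of at least 100 reads, no overlap and an unadjusted p under 0.01, those of largest difference on the higher side were hoxb8, bmp16, nppc, calcb, cldn29, slc18a3a, lgals3bp.3, dspb, anxa6 and tmc3. nppc, the precursor of C-type natriuretic peptide, stood at 167, 217 and 227 in dominant brains, against 89.2, 41.6 and 16.1 in subordinate brains. calcb, a precursor of a calcitonin gene-related peptide, stood at 1633, 1584 and 1606 in dominant brains, against 829, 244 and 238 in subordinate brains. Dominant brains were close to each other for calcb, and subordinate brain 1 lay between them and the other two subordinate brains. dspb, a desmoplakin that anchors filaments at cell junctions, stood at 760.0, 1358 and 784 in dominant brains, against 464, 301 and 289 in subordinate brains, anxa6, a calcium-dependent membrane binding protein, at 484, 356 and 381 in dominant brains, against 249.5, 138 and 101 in subordinate brains, and tmc3, a transmembrane channel-like protein, at 175, 174 and 140.2 in dominant brains, against 112, 54.0 and 42.3 in subordinate brains. lgals3bp.3, of the galectin-3-binding protein family, stood at 305, 262 and 723 in dominant brains, against 189, 115 and 75.5 in subordinate brains. None of these 10 passed the limma test (adjusted p = 0.51 to 0.855). DESeq2 called bmp16, cldn29, dspb, nppc, anxa6 and lgals3bp.3 among them (adjusted p = 1.77e-06 to 0.0256) and did not call the rest.

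On the lower side the same rule gave lg3h4orf54, postna, eomesa, ppl, npy8br, hs3st2, tbc1d1, bhlhe22, kcnh3 and senp7b, with smaller differences of -0.79 to -0.53 log2 units. postna, a periostin of the extracellular matrix, stood at 145, 148 and 138 in dominant brains, against 249.5, 219 and 273 in subordinate brains. npy8br, a receptor for neuropeptide Y and peptide YY in fishes, stood at 591, 756 and 727 in dominant brains, against 1011, 1122 and 1111 in subordinate brains (DESeq2 adjusted p = 0.00072). hs3st2, a sulfotransferase that modifies heparan sulfate in neurons, stood at 186, 184 and 209 in dominant brains, against 244, 327 and 343 in subordinate brains. By the rule that chose them, all 10 were lower in every dominant brain than in any subordinate brain. tbc1d1, which regulates Rab proteins in glucose uptake, stood at 546, 661 and 745 in dominant brains, against 843, 1014 and 1064 in subordinate brains, kcnh3, a voltage-gated potassium channel of the forebrain, at 956, 1190.1 and 1035 in dominant brains, against 1525, 1379 and 1774 in subordinate brains, and ppl, the cell junction protein periplakin, at 68.4, 80.9 and 79.5 in dominant brains, against 136, 97.7 and 139 in subordinate brains. Limma adjusted p ran from 0.389 to 0.855 over the 10, and none passed. Besides npy8br, DESeq2 called postna, eomesa, bhlhe22, kcnh3 and senp7b (adjusted p = 0.00178 to 0.0272) and did not call the rest.

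Some genes that mark the caudal end of the neural axis were higher in dominant brains, and some genes of the dorsal forebrain were lower. Hox genes pattern the hindbrain and spinal cord along the axis, and those of high paralog group number act farthest back. Of 26 hox genes of groups 5 to 13 that were listed, 15 were in the table and 11 had a mean of at least 10 reads. A gene near 0 in subordinate brains could reach that mean only through dominant brains, so the count over the 11 is no measure of the whole list. hoxb8 stood at 275, 449 and 194 in dominant brains 1 to 3, against 50.1, 0 and 0 in subordinate brains 1 to 3. hoxb6a stood at 121, 262 and 129 in dominant brains, against 30.1, 2.08 and 4.02 in subordinate brains, and hoxb9 stood at 34.2, 91.3 and 24.1 in dominant brains, against 5.46, 0 and 0 in subordinate brains. In each of these genes subordinate brain 1 lay between the dominant brains and the other two subordinate brains. For 8 of the 11 the groups did not overlap, with dominant brains higher (5.46% of all genes), from which nothing is read because of that selection, and none passed limma (adjusted p = 0.52 to 0.934). DESeq2 called 3 of the 11, all higher (0.386% of all genes in either direction), from which nothing is read for the same reason. Summed over the 11, reads were 1319, 1851 and 1058 in dominant brains, against 806, 68.6 and 153 in subordinate brains. The median difference of the 11 was 2.91, and without subordinate brain 1 it was 4.50.

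In genes of groups 1 to 4, which act in the hindbrain proper, subordinate brain 1 lay within or near the range of the dominant brains. hoxb1, a gene of the fourth hindbrain segment, stood at 147, 117 and 97.3 in dominant brains, against 85.6, 9.35 and 21.1 in subordinate brains. hoxa4a stood at 212, 191 and 153 in dominant brains, against 239, 67.5 and 109 in subordinate brains and hoxc4 at 170.0, 220.1 and 135 in dominant brains, against 228, 76.9 and 89.5 in subordinate brains. Of 11 tested genes (14 listed) all 11 had a higher mean in dominant brains, 2 did not overlap (5.46% of all genes), and the median difference was 0.63, or 1.09 without subordinate brain 1. Among them hoxb3 (mean 37.8 in dominant and 8.36 in subordinate brains) reached the filter only through dominant brains, so these counts are no measure of the whole list. The summed reads of 1425, 1714 and 968 in dominant brains, against 1433, 555 and 536 in subordinate brains place subordinate brain 1 within the range of the dominant brains. Several of these genes have a paralog in the table under a similar name, between which reads may be shared.

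Transcription factors of hindbrain and spinal neurons other than hox leaned the same way. Of 33 tested, 23 were higher in dominant brains, 3 of them with no overlap (5.46% of all genes), and the median difference was 0.33, against -0.0043 over all tested genes. The table held 38 genes of this list. Among those tested, mnx1 (mean 21.1 in dominant and 3.99 in subordinate brains) reached the filter only through dominant brains. The counts are therefore no measure of the whole list. The median was 0.10 without dominant brain 1, 0.19 without subordinate brain 2 and 0.17 without subordinate brain 3. mnx1, the homeobox factor of motor neurons, stood at 18.7, 20.7 and 24.1 in dominant brains, against 10.9, 1.04 and 0 in subordinate brains, so subordinate brains 2 and 3 held at most a trace. pax8, a factor of interneurons of the hindbrain and spinal cord, stood at 57.0, 55.5 and 33.5 in dominant brains, against 29.1, 15.6 and 8.05 in subordinate brains. dbx2, of ventral interneurons, stood at 20.7, 16.9 and 15.7 in dominant brains, against 11.8, 13.5 and 6.04 in subordinate brains. slc6a5, the glycine transporter of inhibitory neurons of hindbrain and cord, stood at 68.4, 113 and 106 in dominant brains, against 70.1, 49.9 and 13.1 in subordinate brains, and here the groups overlapped. mafb, a factor of hindbrain segments, stood at 1934, 1612 and 1101 in dominant brains, against 1456, 1362 and 1781 in subordinate brains, with no order by status. No member passed limma (adjusted p = 0.931 to 0.996). In bulk tissue fewer cells of a type and less RNA per cell cannot be told apart, and the part of the tissue taken with each brain in these values was not tested.

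Acetylcholine is the transmitter of motor neurons and of cholinergic groups in the hindbrain and forebrain. The genes that make and load it were higher in dominant brains. slc5a7a, the transporter that takes up choline, stood at 448, 347 and 396 in dominant brains 1 to 3, against 252, 162 and 146 in subordinate brains 1 to 3 (difference 1.12 ± 0.22, adjusted p = 0.59). slc18a3a, which loads acetylcholine into vesicles, stood at 683, 397 and 426 in dominant brains, against 309, 117 and 87.5 in subordinate brains (difference 1.72 ± 0.46, adjusted p = 0.855). The choline acetyltransferase chatb stood at 784, 458 and 542 in dominant brains, against 414, 267 and 240.4 in subordinate brains (difference 0.95 ± 0.26, adjusted p = 0.855). Dominant brain 1 was highest in all 3 and subordinate brains 2 and 3 were lowest. The second copies overlapped between the groups, with chata at 132, 88.4 and 69.1 in dominant brains, against 79.2, 39.5 and 34.2 in subordinate brains and slc18a3b at 212, 124 and 167 in dominant brains, against 155, 80.0 and 113 in subordinate brains. ache, the enzyme that breaks acetylcholine down, stood at 6011, 4983 and 5419 in dominant brains, against 5644, 4794 and 4721 in subordinate brains, and the muscarinic receptor chrm2a was lower in every dominant brain, at 4599, 4744 and 5011 in dominant brains, against 5327, 5286 and 5142 in subordinate brains. DESeq2 called 1 of the 21 acetylcholine genes tested, slc5a7a (adjusted p = 0.00464, against 0.386% of all genes in either direction). Of the 21, 15 were higher, the median difference was 0.20 and none passed limma. That median was 0.33 without dominant brain 2 and 0.12 without dominant brain 3. Nicotinic receptor subunits went in both directions, with chrna4b at 203, 295 and 458 in dominant brains, against 413, 482 and 410.5 in subordinate brains and chrna3 at 101, 69.6 and 54.4 in dominant brains, against 74.7, 38.4 and 36.2 in subordinate brains. The hox genes of groups 5 to 13 and mnx1, described above, are likewise lowest in subordinate brains 2 and 3, and their part in these values was not tested.

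Some genes of fast synapses and of axons were higher in dominant brains. vamp1a, a vesicle fusion protein, stood at 111, 93.1 and 106 in dominant brains, against 65.6, 50.9 and 57.3 in subordinate brains, and sv2ca, a synaptic vesicle glycoprotein, at 1762, 1600.3 and 1529 in dominant brains, against 1233, 912 and 1200.2 in subordinate brains. scn4bb, a subunit of sodium channels, stood at 1021, 685 and 720.0 in dominant brains, against 562, 353 and 242 in subordinate brains. syt2b, a calcium sensor of fast synapses, stood at 5837, 4160.1 and 4328 in dominant brains, against 4365, 2907 and 2852 in subordinate brains, with subordinate brain 1 above dominant brains 2 and 3. The synapse list as a whole leaned the other way: of 55 tested genes 38 were lower in dominant brains, 7 with no overlap (5.33% of all genes), while 2 were higher with no overlap (5.46% of all genes), and the median difference was -0.05. Among the lower genes, syt1, the calcium sensor of most forebrain synapses, stood at 23539.7, 22737 and 24006 in dominant brains, against 25345, 27594 and 27176 in subordinate brains and camk2b, a synaptic kinase, at 6601, 6679.5 and 7583 in dominant brains, against 7720.1, 8102 and 8989.8 in subordinate brains. None of these genes passed limma (adjusted p = 0.661 to 0.934). DESeq2 called 1 of the 55, sv2ca (adjusted p = 0.0412, against 0.386% of all genes in either direction). The synapse median was -0.10 without subordinate brain 1 and -0.01 without subordinate brain 3.

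Factors of the pallium, the dorsal forebrain that holds the fish counterparts of cortex, hippocampus and amygdala, were led by genes that were lower in dominant brains. Of 29 tested, 19 were lower, 5 of them with no overlap (5.33% of all genes), and 1 was higher with no overlap (5.46% of all genes). eomesa, a T-box factor of excitatory pallial neurons, stood at 1826, 2311 and 2458 in dominant brains 1 to 3, against 3033, 3579 and 4139 in subordinate brains 1 to 3. tbr1, a related factor, stood at 693, 1136 and 1167 in dominant brains, against 1288, 1577 and 1796 in subordinate brains. bhlhe22 stood at 1372, 1594 and 1643 in dominant brains, against 2186, 2094 and 2510.0 in subordinate brains and neurod6b at 673, 708 and 715 in dominant brains, against 849.7, 819 and 808 in subordinate brains, both factors of excitatory forebrain neurons. For all 4 each dominant brain lay below each subordinate brain. The median difference of the list was -0.08, or -0.02 without dominant brain 1 and -0.12 without dominant brain 3, so the list as a whole was near the median of all genes. emx3, a marker of the pallium, varied within the dominant brains, at 61.2, 207 and 223 in dominant brains, against 137, 248 and 238 in subordinate brains, with dominant brain 1 lowest of the 6. bcl11bb went the other way at 504, 440.3 and 426 in dominant brains, against 404, 299 and 383 in subordinate brains. Limma adjusted p was 0.52 to 0.997 over the list. DESeq2 called 2 of the 29, bhlhe22 and eomesa (0.386% of all genes in either direction).

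bhlhe23, a related factor listed with the retina and pineal, stood at 1633, 2461 and 2675 in dominant brains, against 3009.9, 3195 and 3487 in subordinate brains, and reln, the secreted guidance protein reelin, at 4828, 4822 and 5797 in dominant brains, against 6222, 6268 and 6355 in subordinate brains, each lower in every dominant brain. Ventral forebrain factors (15 of 26 higher, median 0.07) and hypothalamic and preoptic factors (15 of 25 higher, median 0.01) lay near all genes. In the hypothalamic list fezf1 stood at 115, 103 and 140.2 in dominant brains, against 81.1, 81.0 and 51.3 in subordinate brains and nkx2.4a at 118, 90.3 and 109 in dominant brains, against 85.6, 89.3 and 45.3 in subordinate brains, with every dominant brain above every subordinate brain. tbx3, of the tuberal hypothalamus, was lower in dominant brains at 159.7, 197 and 145 in dominant brains, against 198, 203 and 207 in subordinate brains. With 1 brain left out the ventral forebrain median ran from -0.06 without dominant brain 2 to 0.07 without dominant brain 1, and the hypothalamic one from -0.02 without dominant brain 3 or subordinate brain 3 to 0.14 without subordinate brain 1. Thalamic and midbrain factors were higher in 25 of 35 (median 0.12) and in 15 without dominant brain 1 (median -0.02), with no member free of overlap. That median was 0.19 without dominant brain 2, 0.26 without subordinate brain 1 and 0.01 without subordinate brain 2. Cerebellar genes were higher in 22 of 32 (median 0.08), and in 13 without dominant brain 1, and the median ran from -0.05 without dominant brain 1 to 0.26 without dominant brain 3.

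**Figure D3:**
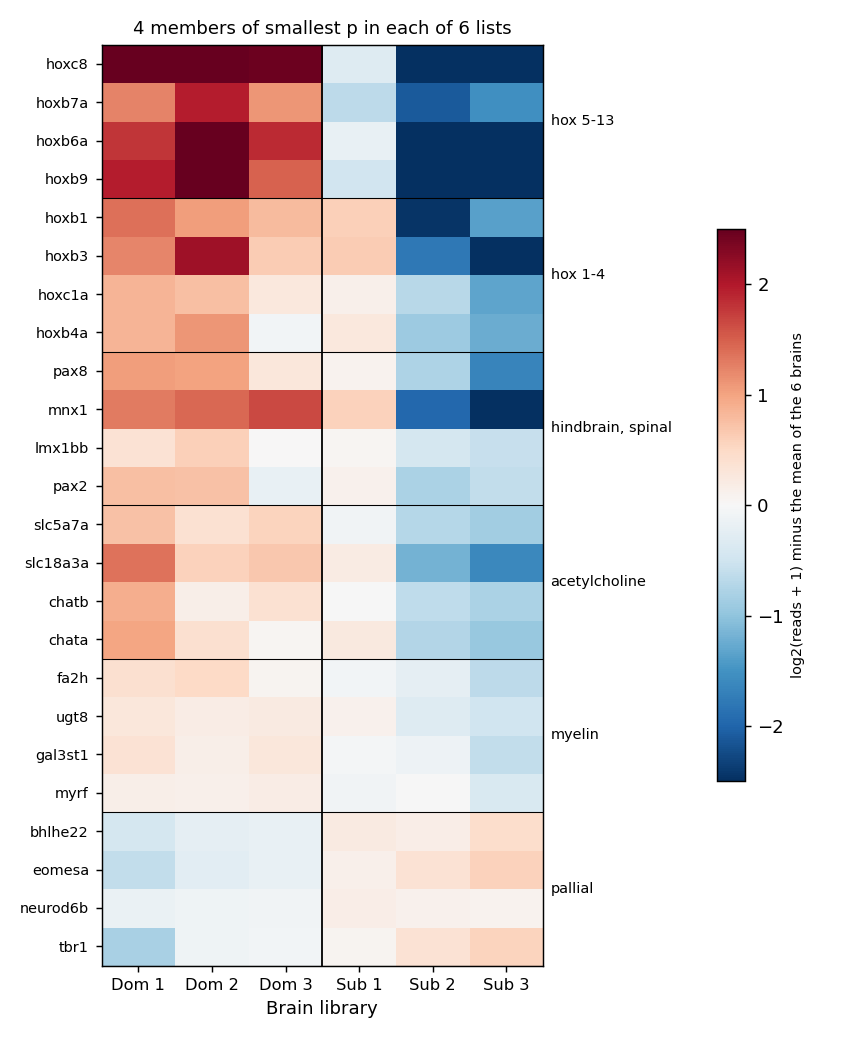
Heat map of log2(reads + 1) minus the mean of the 6 brains for the 4 members of smallest p in each of 6 lists (rows), in dominant brains 1 to 3 and subordinate brains 1 to 3 (columns), with colours held at -2.5 and 2.5 beyond those values. Hox, hindbrain and acetylcholine rows are lowest in subordinate brains 2 and 3, myelin rows in subordinate brain 3, and pallial rows in the 3 dominant brains.

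Myelin genes, the products of oligodendrocytes, were higher in dominant brains in 23 of 27 tested members, with a median difference of 0.28. In 7 the groups did not overlap on the higher side (5.46% of all genes) and in 1, erbb3a, on the lower side (5.33% of all genes). gal3st1, which makes the sulfatide of myelin, stood at 256, 218 and 242 in dominant brains 1 to 3, against 191, 182 and 128 in subordinate brains 1 to 3. fa2h, a hydroxylase that acts on fatty acids of myelin, stood at 1137, 1218 and 902 in dominant brains, against 817, 739.7 and 544 in subordinate brains. mag, a myelin adhesion protein, stood at 10471, 9826 and 8934 in dominant brains, against 7549, 8669.5 and 8664 in subordinate brains. Subordinate brain 3 was lowest for gal3st1 and fa2h but not for mag. The main structural proteins overlapped, with mbpa at 69811, 71306 and 59673 in dominant brains, against 82259.8, 64348 and 49593 in subordinate brains and plp1b at 23165, 24756 and 23692 in dominant brains, against 25519.9, 19529 and 12876 in subordinate brains, and in both subordinate brain 1 was the highest of the 6 brains. Summed over the list, reads were 218006, 229269 and 210626 in dominant brains, against 239762, 189615 and 138763 in subordinate brains. The median was 0.14 without subordinate brain 3 and 0.40 without subordinate brain 1, and no member passed limma (adjusted p = 0.855 to 0.998). Over subordinate brains 1 to 3 the sums of the genes of antiviral defence and antigen presentation, described below, had the same order (45023, 35069 and 24649.6). Those of the hox genes of groups 1 to 4 above had it too, with brains 2 and 3 close together (555 and 536). The part of either list in the myelin values was not tested.

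Radial glia, which serve as stem cells and as astrocytes in the adult fish brain, showed higher values for a few of their genes. gfap, the intermediate filament of glia, stood at 17273, 23826 and 19438 in dominant brains 1 to 3, against 13427, 15412 and 14351 in subordinate brains 1 to 3. clu, the secreted chaperone clusterin, stood at 23745, 23944 and 25691 in dominant brains, against 20562, 20593 and 20218 in subordinate brains, s100b, a calcium-binding protein of glia, at 76315, 84599.5 and 77945 in dominant brains, against 63229.6, 73283 and 58709.5 in subordinate brains, and fabp7a, which binds fatty acids in those glia, at 2829, 3558 and 2388 in dominant brains, against 2244, 1916 and 1749 in subordinate brains. These 4 were the only members of the list with no overlap (5.46% of all genes on the higher side), and 17 of 22 were higher (median 0.16, 0.07 without dominant brain 2 and 0.08 without subordinate brain 1). The transporters of glutamate did not follow, with slc1a2 at 49168, 56699 and 54527 in dominant brains, against 43359.8, 55796 and 59209.5 in subordinate brains. cyp19a1b, the brain aromatase of radial glia, stood at 3221, 4253 and 3117 in dominant brains, against 1769.5, 3649.6 and 2548 in subordinate brains, where subordinate brain 2 was above dominant brains 1 and 3. No member of the list passed limma (adjusted p = 0.855 to 0.997). DESeq2 called 1 of the 22, clu (adjusted p = 0.0106, against 0.386% of all genes in either direction).

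All 23 tested genes of antiviral defence and antigen presentation (35 listed, 23 in the table) had a higher mean in dominant brains, with a median of 0.32. irf3, which turns on interferon, stood at 260.2, 272 and 294 in dominant brains, against 191, 226 and 231 in subordinate brains. usp18, which restrains the response, stood at 140.0, 154 and 265 in dominant brains, against 109, 133 and 103 in subordinate brains. In both the groups did not overlap, as in 5 of the 23 (5.46% of all genes). The response gene rsad2 stood at 168, 188 and 225 in dominant brains, against 46.4, 215 and 64.4 in subordinate brains, and subordinate brain 2 lay within the dominant range. For cd74, the chaperone of class II molecules, at 19075, 20178 and 18449 in dominant brains, against 21487, 14971 and 10855 in subordinate brains, subordinate brain 1 was highest. The median was 0.18 without subordinate brain 3 and 0.49 without subordinate brain 1. Microglia genes were higher in 12 of 15 (median 0.16), 0.03 without subordinate brain 3 and 0.36 without subordinate brain 1. Only marco, a scavenger receptor, did not overlap among the 15, near the 5.46% of all genes, at 103, 129.8 and 143 in dominant brains, against 94.7, 79.0 and 89.5 in subordinate brains. No gene of either list passed limma (adjusted p = 0.855 to 0.998).

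Enzymes of sterol synthesis were mostly higher in dominant brains. Of 32 tested genes 26 were higher in dominant brains, 14 of them with no overlap (5.46% of all genes) and none lower with no overlap (5.33% of all genes). The median difference was 0.24, and it was 0.21 to 0.29 when 1 brain was left out. DESeq2 called 5 of the 32, all higher (0.386% of all genes in either direction), while limma called none (adjusted p = 0.16 to 0.997). In order of the pathway, hmgcs1, which makes HMG-CoA, stood at 736, 759 and 726 in dominant brains, against 582, 687 and 643 in subordinate brains. The rate-limiting reductase hmgcra stood at 578, 532 and 529.5 in dominant brains 1 to 3, against 278, 342 and 302 in subordinate brains 1 to 3 (difference 0.83 ± 0.10, adjusted p = 0.16). Its dominant values lay above every subordinate value by more than the spread in either status. The mevalonate kinase mvk, the next enzyme, overlapped at 115, 147 and 129 in dominant brains, against 137, 145 and 129.8 in subordinate brains, as did fdps, which makes farnesyl diphosphate, at 563, 433 and 485 in dominant brains, against 459, 398 and 414 in subordinate brains.

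The branch that leads only to sterols separated the groups at several steps. fdft1, which makes squalene, stood at 643, 519 and 572 in dominant brains, against 483, 466 and 446 in subordinate brains, and sqle, which oxidises it, at 201, 199 and 221 in dominant brains, against 95.6, 133 and 117 in subordinate brains. cyp51, the lanosterol demethylase, stood at 737, 668 and 701 in dominant brains, against 479, 435 and 434 in subordinate brains (difference 0.64 ± 0.08, adjusted p = 0.16). msmo1, which removes methyl groups from the sterol ring, stood at 645, 491 and 529 in dominant brains, against 333, 300.2 and 296 in subordinate brains. nsdhl, of the same step, stood at 129, 94.1 and 97.3 in dominant brains, against 63.7, 65.4 and 63.4 in subordinate brains. In each of these 5 genes all dominant values were above all subordinate values. The reductase dhcr7, of the last steps, overlapped at 388, 312 and 342 in dominant brains, against 345, 240.0 and 231 in subordinate brains. For uptake and transport, ldlr, the lipoprotein receptor, stood at 62.2, 44.2 and 42.9 in dominant brains, against 31.9, 30.1 and 33.2 in subordinate brains and npc2, which moves cholesterol out of lysosomes, at 522, 515 and 589 in dominant brains, against 385, 389.6 and 370.2 in subordinate brains. Its partner npc1 did not follow, at 645, 742 and 829 in dominant brains, against 769, 768 and 677 in subordinate brains. The controllers of the pathway gave no split: srebf2 stood at 2606, 2788 and 2910.4 in dominant brains, against 2819, 2912 and 2794 in subordinate brains and insig1 at 534, 469 and 423 in dominant brains, against 464, 422 and 402 in subordinate brains. Subordinate brain 1 had no fixed place among the subordinate brains, since it was the highest of them for fdps, fdft1, cyp51, msmo1 and dhcr7 and the lowest for hmgcs1, hmgcra and sqle.

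Among reproductive neuropeptides 15 of 18 tested genes were higher in dominant brains, with a median of 0.38, and 2 did not overlap on the higher side (5.46% of all genes). oxt, which encodes isotocin, the fish form of oxytocin, stood at 7125, 9847 and 9839.6 in dominant brains 1 to 3, against 5367, 5949.7 and 2862 in subordinate brains 1 to 3 (difference 0.97 ± 0.28, adjusted p = 0.895). nms, the neuromedin S precursor, stood at 64.3, 133 and 78.5 in dominant brains, against 62.8, 54.0 and 48.3 in subordinate brains, where subordinate brain 1 nearly reached dominant brain 1. The lowest value of oxt was that of subordinate brain 3, and avp, which encodes vasotocin, was also lowest there, at 6418, 14287 and 13151 in dominant brains, against 8501, 18150.4 and 4074 in subordinate brains, although avp overlapped between the groups. The gonadotropin-releasing hormones overlapped between the groups. gnrh1, the preoptic hormone that drives gonadotropins, stood at 171, 194 and 156 in dominant brains, against 176, 192 and 233 in subordinate brains. gnrh2, of the midbrain, stood at 134, 77.1 and 50.2 in dominant brains, against 77.4, 21.8 and 8.05 in subordinate brains, and gnrh3, of the terminal nerve, at 91.2, 203 and 17.8 in dominant brains, against 5.46, 4.16 and 144 in subordinate brains. For gnrh3 subordinate brain 3 was above dominant brains 1 and 3 and the other two subordinate brains were the lowest of the 6. kiss2, a kisspeptin, stood at 34.2, 8.47 and 7.33 in dominant brains, against 17.3, 4.16 and 10.1 in subordinate brains. tac3a, a neurokinin B precursor, stood at 193, 183 and 140.2 in dominant brains, against 148, 109 and 75.5 in subordinate brains, and penk, an opioid precursor, at 1753, 1458 and 1095 in dominant brains, against 1402, 1099 and 1720.3 in subordinate brains. The list median was 0.54 without subordinate brain 1. No member passed limma (adjusted p = 0.895 to 0.99).

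Feeding and stress peptides split in both directions, with 6 genes higher (5.46% of all genes) and 4 lower (5.33% of all genes) with no overlap among 34 tested, and 18 higher in all (median 0.05, -0.04 without dominant brain 3 to 0.10 without subordinate brain 3). On the higher side pyya, a peptide YY, stood at 532, 456 and 391 in dominant brains 1 to 3, against 355, 226 and 196 in subordinate brains 1 to 3. pmchl, of the melanin-concentrating hormone family, which is tied to feeding and colour in fishes, stood at 823, 719 and 1133 in dominant brains, against 683, 672 and 642 in subordinate brains. Its relative pmch stood at 294, 464 and 887 in dominant brains, against 328, 223 and 340.0 in subordinate brains, with dominant brain 1 inside the subordinate range. ghrh, which releases growth hormone, stood at 61.2, 51.7 and 64.9 in dominant brains, against 41.9, 50.9 and 41.2 in subordinate brains, and trh, which releases thyrotropin, at 685, 744 and 697 in dominant brains, against 669, 480.0 and 668 in subordinate brains. The granins scg2 and chgb, proteins of peptide vesicles, stood at 4256, 4451 and 4899 in dominant brains, against 3858, 3939 and 3511 in subordinate brains for scg2 and at 18497, 15012 and 14007 in dominant brains, against 13099.6, 12370.0 and 13175 in subordinate brains for chgb. In all of these but pmch the 3 dominant brains were the highest of the 6. The granins chga and scg2b did not follow, and both overlapped. chga stood at 7158, 8882 and 9718 in dominant brains, against 8997, 10239 and 9905 in subordinate brains (difference -0.19). The paralog scg2b stood at 23837, 25671 and 30443 in dominant brains, against 27306, 25428 and 20950.4 in subordinate brains.

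On the lower side adcyap1, which encodes the peptide PACAP, stood at 2594, 2466 and 2299 in dominant brains, against 2795, 3133 and 3617 in subordinate brains, and its paralog adcyap1b overlapped at 20124, 21567 and 23772 in dominant brains, against 21036, 25119 and 24581 in subordinate brains. ucn, a urocortin of the corticotropin-releasing family, stood at 523, 587 and 614 in dominant brains, against 686, 866 and 649.9 in subordinate brains. sst5, a somatostatin, stood at 45.6, 37.6 and 56.5 in dominant brains, against 67.4, 81.0 and 76.5 in subordinate brains, and cck, cholecystokinin, at 3256, 4832 and 5150.0 in dominant brains, against 5278, 6016 and 6171 in subordinate brains. adcyap1, ucn, sst5 and cck were lower in every dominant brain than in any subordinate brain, whereas ccka, the other cholecystokinin gene, overlapped at 2225, 1532 and 876 in dominant brains, against 1171, 666 and 1042 in subordinate brains. crh, which starts the stress axis, stood at 898, 699.9 and 914 in dominant brains, against 821, 549 and 584 in subordinate brains, and npy, which drives feeding, at 2238, 2412 and 3124 in dominant brains, against 2966, 2533 and 2999 in subordinate brains. agrp, another feeding peptide, stood at 70.5, 57.4 and 65.9 in dominant brains, against 36.4, 69.6 and 345 in subordinate brains, with subordinate brain 3 several times above the rest. No member of the list passed limma (adjusted p = 0.855 to 0.987). Of 40 peptide receptors 21 were higher (median 0.02, -0.10 without dominant brain 3 to 0.05 without dominant brain 1). The receptor galr1, for galanin, stood at 196, 198 and 206 in dominant brains, against 189, 173 and 109.7 in subordinate brains, and oxtr, for isotocin, overlapped at 137, 125 and 119 in dominant brains, against 114, 122 and 81.5 in subordinate brains.

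**Figure D4:**
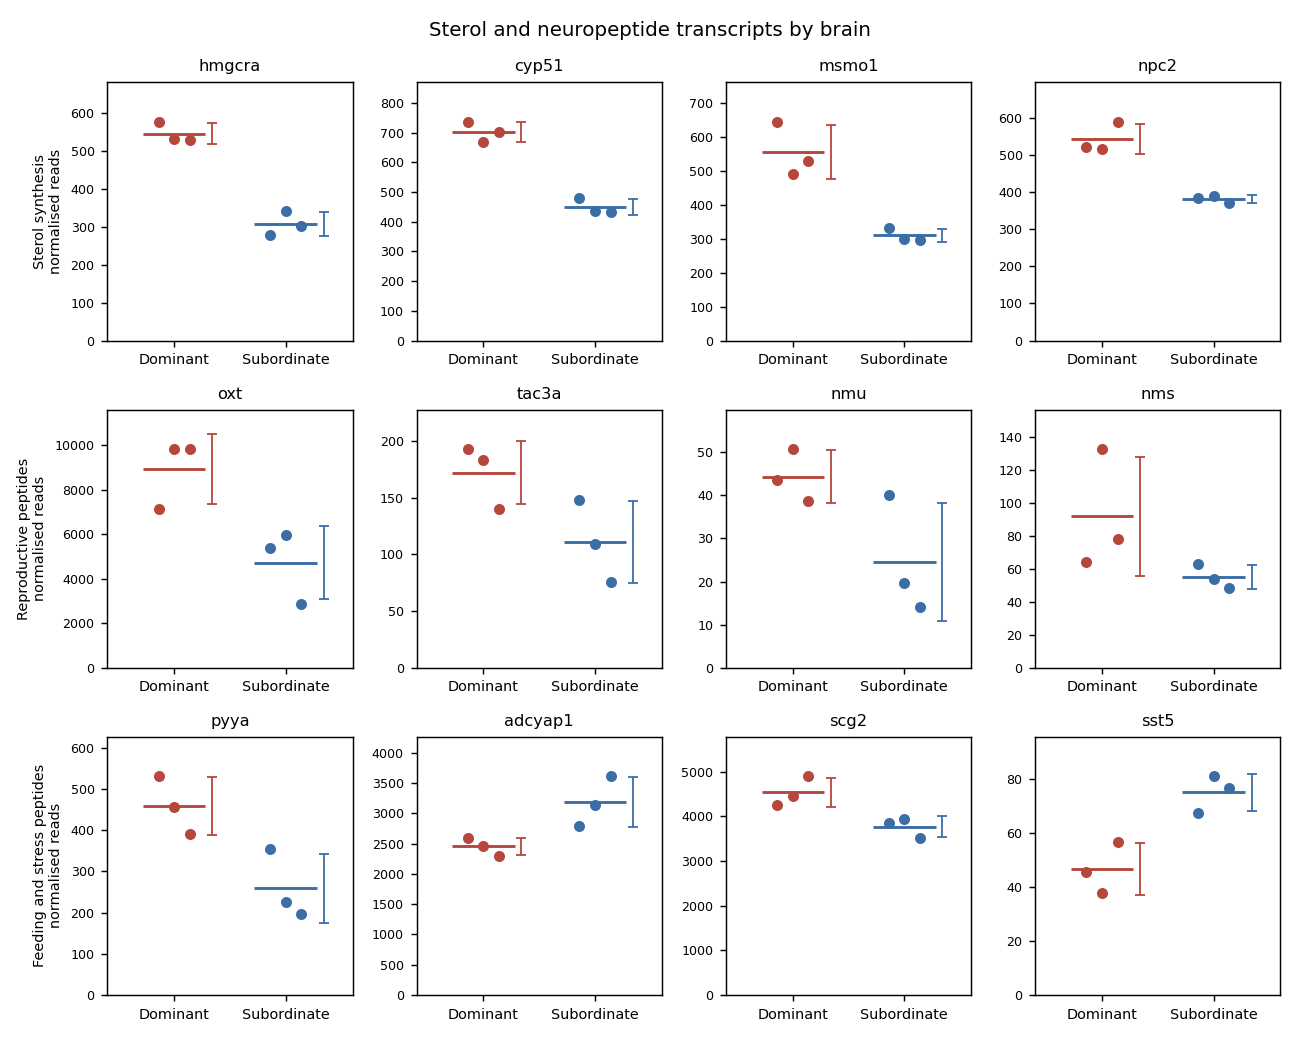
Normalised reads of the 4 members of smallest p among sterol genes (top), reproductive peptides (middle) and feeding and stress peptides (bottom) in 3 dominant brains (red) and 3 subordinate brains (blue), with a line at the mean and a bar for the SD. The sterol panels show tight groups that do not overlap, while tac3a and nmu overlap, and adcyap1 and sst5 are lower in dominant brains.

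Hormones made by the pituitary were also read in the brain libraries, and all 8 tested were lower in dominant brains (median -0.59). fshb, the beta subunit of follicle-stimulating hormone, stood at 111, 132 and 102 in dominant brains, against 162, 164 and 343 in subordinate brains. gh1, growth hormone, stood at 2809.8, 3109 and 3866 in dominant brains, against 3763, 3825 and 8557 in subordinate brains, and lhb, of luteinising hormone, at 215, 281 and 283 in dominant brains, against 284, 311 and 1011 in subordinate brains. In 3 of the 8, fshb, cga and lhb, the groups did not overlap on the lower side (5.33% of all genes). None of the 8 passed limma (adjusted p = 0.934 to 0.937). All were highest in subordinate brain 3, and without that library the median was -0.20 and 0 of the 8 were higher in dominant brains. The feeding peptide agrp was highest in the same library, and the part of pituitary tissue in these values was not tested.

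Steroid genes showed little difference by rank: 13 of 30 tested were higher (median -0.04, -0.05 without subordinate brain 1 to -0.02 without subordinate brain 2 or subordinate brain 3) and none passed limma. The androgen receptors ara and ar stood at 87.1, 56.4 and 56.5 in dominant brains, against 69.2, 69.6 and 58.3 in subordinate brains for ara and at 6.22, 11.3 and 14.7 in dominant brains, against 12.7, 10.4 and 11.1 in subordinate brains for ar. esr1, an oestrogen receptor, stood at 226, 586 and 224 in dominant brains, against 239.5, 317 and 686 in subordinate brains, with dominant brain 2 and subordinate brain 3 apart from the rest. pgr, the progesterone receptor, stood at 13.5, 13.2 and 14.7 in dominant brains, against 6.37, 14.5 and 19.1 in subordinate brains. pgrmc1, a membrane protein that binds progestins, was the member of smallest p, at 2566, 2499 and 2203 in dominant brains, against 1862, 1939 and 2148 in subordinate brains, and gper1, a membrane oestrogen receptor, stood at 61.2, 54.6 and 53.4 in dominant brains, against 37.3, 47.8 and 47.3 in subordinate brains, both higher in every dominant brain. hsd11b2, which inactivates cortisol, stood at 285, 265 and 369 in dominant brains, against 197, 621 and 563 in subordinate brains, and the glucocorticoid response gene fkbp5 at 639.7, 1549 and 3450.4 in dominant brains, against 552, 6392 and 4212 in subordinate brains, where dominant brain 1 and subordinate brain 1 were the lowest of the 6.

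Monoamine genes were close to all genes, with 10 of 17 of synthesis and transport higher (median 0.07) and 15 of 31 of the receptors (median -0.07). With 1 brain left out the first median ran from 0.01 without dominant brain 2 or subordinate brain 3 to 0.10 without dominant brain 3 and the second from -0.17 without dominant brain 3 to 0.01 without dominant brain 1. dbh, which makes noradrenaline, stood at 137, 120.4 and 122 in dominant brains, against 97.4, 111 and 107 in subordinate brains, and slc6a4a, the serotonin transporter of the raphe, at 91.2, 57.4 and 75.4 in dominant brains, against 49.2, 50.9 and 6.04 in subordinate brains. Both were higher in every dominant brain, and for slc6a4a subordinate brain 3 alone was low. th, which starts dopamine synthesis, stood at 218, 309 and 187 in dominant brains, against 191, 162 and 249 in subordinate brains, and slc6a3, the dopamine transporter, at 238, 243 and 216 in dominant brains, against 229, 352 and 347 in subordinate brains, both with overlap. htr6, a serotonin receptor, stood at 341, 421 and 412 in dominant brains, against 467, 452 and 443 in subordinate brains, lower in every dominant brain. In the thyroid axis, the deiodinases dio1 and dio3 split in opposite directions. dio1, which activates and clears thyroid hormone, stood at 356, 342 and 368 in dominant brains, against 293, 233 and 327 in subordinate brains, and dio3, which inactivates it, at 327, 309 and 355 in dominant brains, against 368, 429 and 374 in subordinate brains. No gene of these lists passed limma (adjusted p = 0.934 to 0.999).

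Immediate early genes, which neurons switch on within minutes of activity, were lower in 28 of 35 (median -0.21), but in no gene were the groups free of overlap. egr1 stood at 3116, 4569 and 4722 in dominant brains, against 7049, 6693 and 3149 in subordinate brains, fosab at 219, 426 and 518 in dominant brains, against 997, 963 and 167 in subordinate brains and npas4 at 711, 1220.2 and 1242 in dominant brains, against 1352, 2202 and 895 in subordinate brains. Subordinate brains 1 and 2 were high for fosab and egr1 and subordinate brain 3 lay near or below the lowest dominant brain. Without subordinate brain 2 the count of higher members was 17 and the median -0.02. Without dominant brain 1 or subordinate brain 1 the count was 12. The median was -0.06 without dominant brain 1, -0.11 without dominant brain 3, -0.12 without subordinate brain 1 and -0.38 without subordinate brain 3.

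The other cell types a brain sample can hold gave small medians. Endothelium and mural cells were higher in 19 of 31 (median 0.02), erythrocytes in 8 of 14 (0.03, with 4 higher without subordinate brain 1) and new neurons in 19 of 32 (0.04). Meninges and fibroblasts were higher in 27 of 44 (0.11), with the collagen col1a2 at 216, 246 and 341 in dominant brains, against 172, 184 and 174 in subordinate brains and periostin, above, in the other direction. Ciliated and ependymal genes were higher in 25 of 34 (0.17), 6 with no overlap (5.46% of all genes) and 1 lower with no overlap (5.33% of all genes). Among the 6, spag17 of the axoneme stood at 210.5, 151 and 162 in dominant brains, against 117, 110.1 and 142 in subordinate brains. Cell cycle genes were higher in 36 of 52 (0.16). Retina and pineal genes were higher in 8 of 22 (-0.09) and skeletal muscle genes in 3 of 10 (-0.12). Only 22 of 44 listed retina and pineal genes and 10 of 26 listed muscle genes reached a mean of 10 reads. With 1 brain left out, the median of endothelium and mural cells ran from -0.02 without subordinate brain 2 to 0.03 without dominant brain 2 or subordinate brain 3, that of erythrocytes from -0.08 without subordinate brain 1 to 0.13 without subordinate brain 3 and that of new neurons from -0.00 without subordinate brain 3 to 0.07 without dominant brain 3 or subordinate brain 1. The median of meninges and fibroblasts ran from 0.04 without subordinate brain 2 to 0.14 without dominant brain 3, that of ciliated and ependymal genes from 0.10 without dominant brain 1 or dominant brain 2 to 0.20 without dominant brain 3 and that of cell cycle genes from 0.06 without dominant brain 1 to 0.31 without subordinate brain 1. The median of retina and pineal genes ran from -0.22 without dominant brain 3 or subordinate brain 2 to -0.00 without dominant brain 2, and that of skeletal muscle genes from -0.19 without subordinate brain 2 to -0.05 without dominant brain 2. The remaining lists were transmitter genes of glutamate, GABA and glycine neurons (0.01), voltage-gated channels (-0.01), circadian clock (-0.02) and heat shock and protein folding (0.01). With no overlap, 1 transmitter, 3 channel, 1 clock and 2 heat shock genes were higher (5.46% of all genes) and 0, 3, 2 and 3 were lower (5.33% of all genes), out of 24, 41, 32 and 31 tested. Among them hspa8b, a heat shock chaperone, stood at 2007, 1904 and 1885 in dominant brains, against 1591, 1599.9 and 1078 in subordinate brains, and ciartb, a clock repressor, was lower in every dominant brain at 886, 1119 and 1164 in dominant brains, against 1269, 1475 and 1258 in subordinate brains.

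**Figure D5:**
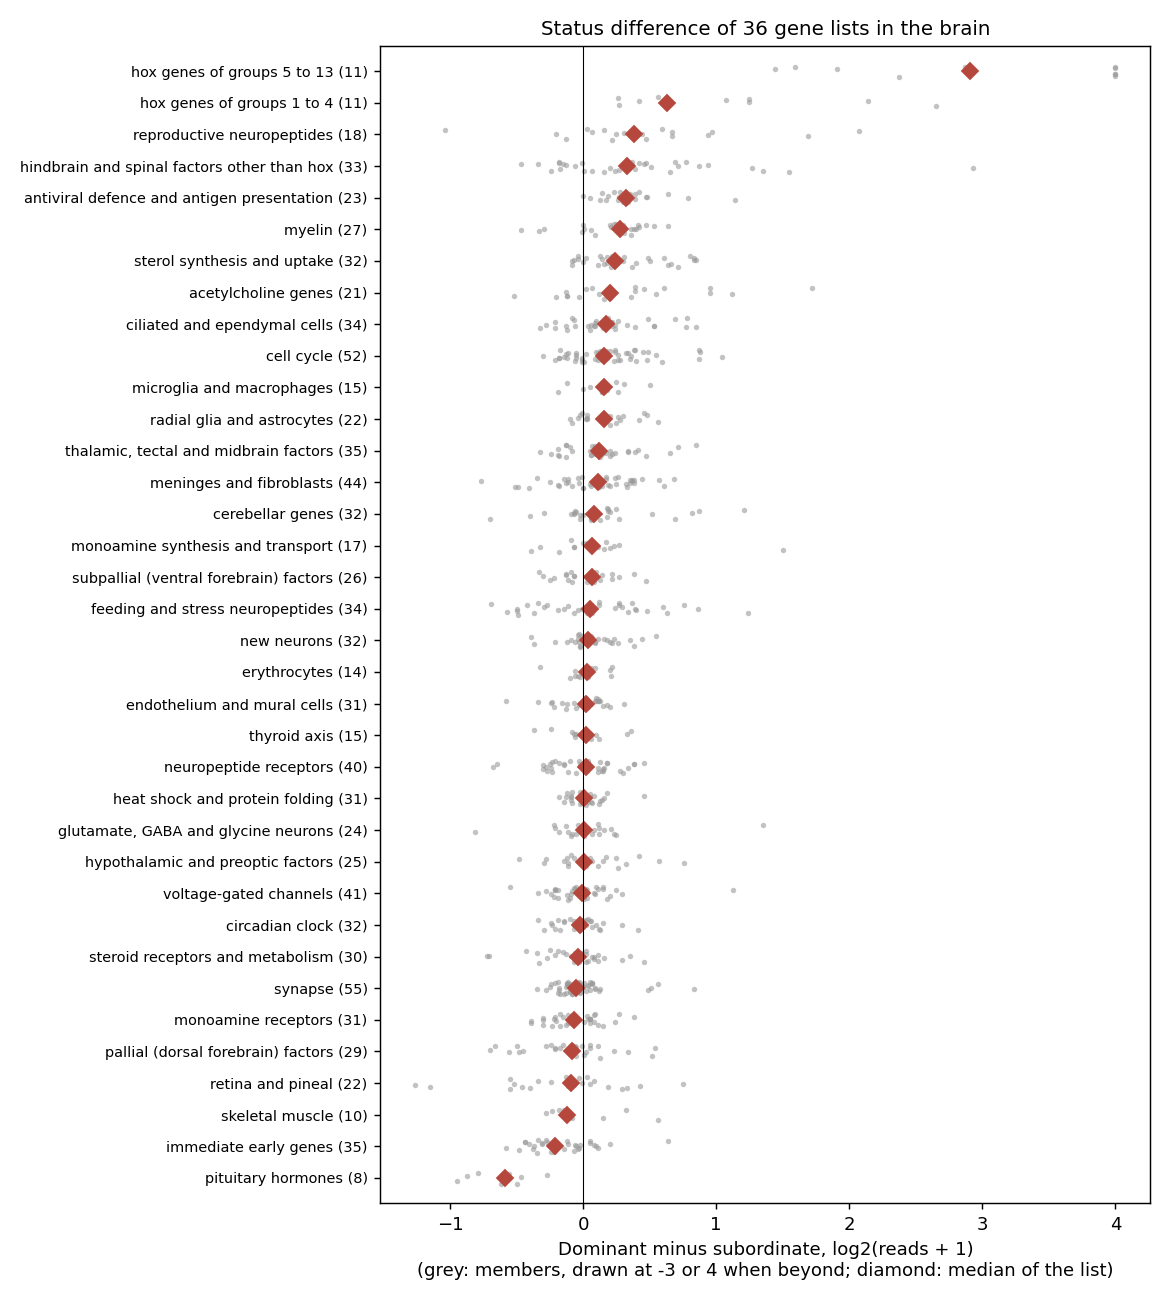
Difference between dominant and subordinate brains (log2) of the tested members of 36 gene lists (grey points, number of members in brackets) and the median of each list (red diamond), with members beyond 4 drawn at 4. The 11 hox genes of groups 5 to 13 that passed the filter on low values, which are no measure of that whole list, have a median of 2.91, pituitary hormones one of -0.59, and most medians lie within 0.2 of 0.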

How the data were processed

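Messenger RNA was sequenced from 12 samples of Nile tilapia, of which the 6 brain samples are used here and the pituitary samples are not used here. Samples were grouped by the hierarchical status in the labels. A miRNeasy kit gave the RNA and a TruSeq RNA kit (v2) the libraries, per the labels' protocols. The submitters' processing notes name STAR 2.201, HTSeq, FastQC 0.11.4, Trim Galore, DESeq and DESeq2. The sources used here do not give the annotation, the genome build, the strand rule or how reads of several loci were counted. The deposited signal values are the authors' normalised read counts. Divided by the value of 1 read, 100% of values in each library came out whole within 0.01 reads. This gave the whole read counts behind the authors' deposited values, with size factors of 0.956 to 1.10. Their table also holds the authors' deposited log2 fold change of each gene, dominant over subordinate, and an unadjusted p-value, per the file headers.

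After 251 blank lines were left out the table held 27115 genes, and 0 columns of values were not used. Of 17130 identifiers that begin with LOC, 17128 matched the RefSeq gene table of assembly O_niloticus_UMD_NMBU and 5834 had a symbol. Another 97 genes were listed by a symbol whose RefSeq gene was already present under its LOC identifier. They were treated as other loci. As the build is not stated, that table gave only names and the order of genes. Genes with a mean of at least 10 were tested on log2(value + 1) with limma 3.58.1 in R 4.3.3 (eBayes, trend=TRUE, two-sided, Benjamini-Hochberg, adjusted p under 0.05). With 3 samples a group, the smallest p of an exact permutation test is 0.1.

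The members and the 36 gene lists (962 tested genes in all) were chosen with earlier results of these data known, so lists are described by counts and medians, with no test of a list. Named genes are the called genes, the 10 of largest difference per direction with a mean of at least 100, no overlap and p under 0.01, genes with a mean of at least 50 in 1 status and at most 5 in each sample of the other, and up to 4 members of smallest p per list (any member of peptide, transmitter, steroid and hormone lists). They are also the 10 of widest spread within groups, 5 neighbours on each side of called genes, and up to 10 named genes called by edgeR or DESeq2. Other genes were named after their values were seen, to show members of a list that overlapped or went the other way.

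Tested on simulated data with 21743 genes, the limma test called 60 of 112 genes simulated with a 2-fold change (53.6%), 70 of 88 with a 4-fold change (79.5%) and 13 genes simulated with none. Alternatives were pseudocounts of 0.5 and 5, no filter, a mean of at least 50, TMM factors, the replicate number as a block, robust eBayes, each sample left out, and tests of the recovered reads by edgeR 4.0.16 (its quasi-likelihood test) and by DESeq2 1.42.0. The counts of higher members with a sample left out were added after the data were seen. Figures were drawn with matplotlib 3.10.9.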

Additional observations from a re-analysis of the deposited data

How the results depend on the processing

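The count of 6 genes was the same, and the same 6 genes passed, with pseudocounts of 0.5 and 5, without the filter, with TMM factors, with robust eBayes and with edgeR. With a mean of at least 50 it was 4, all among the 6. It was 84 with DESeq2, which called the 6 too and left 33 genes without an adjusted p. With 1 sample left out it ran from 1 to 15, and without dominant brain 2 it was 3, of which 2 were lower in dominant brains. With the replicate block it was 1. After removal of group means the correlations of same-numbered brains were 0.092, -0.03 and -0.021. Those of brains with different numbers ran from -0.067 to 0.092. With 3 samples a status, these values cannot show whether brains of the same number shared a tank.

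At an unadjusted p under 0.05 limma found 1124 genes and edgeR 1094. Over these alternatives the 6 genes were tested 89 times, passed 60 times and missed the threshold 29 times, with no change of direction. Of 252 list medians recomputed with other settings, 232 moved by less than the spread between samples and 20 by more. The cause of these shifts was not tested. With 3 samples a status, simulated 2-fold changes were missed in over 4 of 10 genes, so a gene that did not pass is not shown to be equal between the groups. More genes were changed in the simulation (112 by 2-fold and 88 by 4-fold) than the 6 that passed here. The adjustment is looser when more genes change, so the share missed may be larger in these data. The simulation also called 13 unchanged genes beside 60 and 70 changed ones. That is a larger share than an adjusted p under 0.05 aims at, so a gene that passed may be a false call.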

Other observations

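Some transcripts were low in some brains and abundant in others of the same status. Among genes with a mean of at least 100 reads, 48 had a gap of 8-fold or more between neighbouring values of the 6 brains. In 19 of these both groups held high and low brains, in 22 a single brain stood alone, in 2 all dominant brains were high and all subordinate brains low, and in 0 the reverse. chrm4b, a muscarinic acetylcholine receptor, stood at 70.5, 2341 and 3682 in dominant brains, against 66.5, 2505 and 2609.6 in subordinate brains, so brain 1 of each status was low. cnbpb, a nucleic acid binding protein, stood at 359.8, 0 and 325 in dominant brains, against 757, 3.12 and 1.01 in subordinate brains. nlrx1, a regulator of innate immunity, was low in subordinate brain 3 alone, at 443, 849.5 and 869 in dominant brains, against 889.8, 382 and 5.03 in subordinate brains, and prg4a, a lubricating proteoglycan, was low in subordinate brain 1 alone, at 619, 458 and 597 in dominant brains, against 14.6, 501 and 469 in subordinate brains. ppil6, a peptidyl-prolyl isomerase, stood at 791, 17.9 and 746 in dominant brains, against 170.3, 767 and 16.1 in subordinate brains, and tmprss15, a serine protease, at 329, 357 and 6.28 in dominant brains, against 123, 1.04 and 143 in subordinate brains. npff and synprb had smaller gaps but also varied widely within both groups. npff, the precursor of neuropeptide FF, which is made near the terminal nerve in fishes, stood at 92.3, 460.0 and 12.6 in dominant brains, against 3.64, 4.16 and 396 in subordinate brains, and synprb, a synaptic vesicle protein, at 134, 1407 and 757 in dominant brains, against 398, 133 and 1464 in subordinate brains. Limma adjusted p was 0.934 to 0.992 over these 8.

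By the rule for genes with a mean of at least 50 reads in 1 status and at most 5 in each sample of the other there were 10 such genes, 6 of them higher in dominant brains. urp2, a urotensin II-related peptide that neurons in contact with the cerebrospinal fluid make in zebrafish, stood at 85.0, 78.1 and 7.33 in dominant brains, against 2.73, 1.04 and 0 in subordinate brains. LOC112843229, a long non-coding RNA, stood at 0, 602 and 581 in dominant brains, against 0, 2.08 and 2.01 in subordinate brains, and LOC102083027 at 2.07, 4.70 and 270.0 in dominant brains, against 3.64, 4.16 and 3.02 in subordinate brains, where dominant brain 3 alone was above 5 reads. In the other direction LOC112844109 stood at 1.04, 0 and 0 in dominant brains, against 178, 20.8 and 21.1 in subordinate brains and LOC102080016 at 0, 0.941 and 0 in dominant brains, against 122, 21.8 and 13.1 in subordinate brains, highest in subordinate brain 1 (DESeq2 adjusted p = 0.000392 and 0.00152). LOC109201189 stood at 3.11, 1.88 and 4.19 in dominant brains, against 985, 1.04 and 5.03 in subordinate brains and LOC100690167 at 3.11, 1.88 and 2.09 in dominant brains, against 216, 2.08 and 4.02 in subordinate brains, so subordinate brain 1 stood far above the other 5 brains in both. None of these 7 passed limma (adjusted p = 0.52 to 0.934).

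Cerebellar granule and Purkinje cell genes, chosen after their values were seen, varied within both groups. zic1, a granule cell factor, stood at 14359, 10750.3 and 5878 in dominant brains, against 7563, 6641 and 12165 in subordinate brains, and aldoca, a Purkinje cell enzyme, at 3977, 3413 and 965 in dominant brains, against 882, 1241 and 4066 in subordinate brains. tlx3, a factor of hindbrain neurons, stood at 646, 339.6 and 132 in dominant brains, against 216, 149.6 and 375 in subordinate brains. For all 3 dominant brains 1 and 2 and subordinate brain 3 were the highest of the 6.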
